A study of Mus musculus with 20 samples.

Results

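The levels of 5 pairs of mouse gene rows, each a parent gene and a copy of it elsewhere in the genome, were followed in the hippocampus of wild-type and Fkbp5 knockout mice. The pairs are Hmga1 with Hmga1b, Amd1 with Amd2, Polr1d with Gm12751, Hmgb1 with Gm15387, and Catspere2 with Catspere1. They make up 10 of the 55536 gene rows in the count table, and all 10 passed the filter on low counts that left 16419 rows for testing. The pairs were chosen by the appearance of the copy in knockout libraries of these same data, so levels by genotype are given below as a description, with no test. Tests are given only for LPS, for the interaction of genotype and LPS, and for rows that the choice did not use.

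RNA was taken from the hippocampus of male mice aged 12 weeks (strain label C57BL/6J), 7 days after 1 intraperitoneal injection. The 4 groups were wild-type after saline, wild-type after LPS at 3 mg/kg (lipopolysaccharide, an endotoxin of bacterial outer membranes that sets off inflammation), Fkbp5 knockout after saline, and Fkbp5 knockout after the same dose of LPS. Each group held 5 libraries, with total counts of 16652992 to 27230202. The labels do not say whether each replicate was a separate animal, how the knockout allele was made or in which strain it arose, so p-values measure the spread between these libraries, which may be technical.

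A processed copy arises when a spliced transcript is copied back into DNA and inserted at a new place, so it lacks introns and lacks the parent's promoter. HMGA1 is a chromatin protein that binds AT-rich DNA, AMD1 (S-adenosylmethionine decarboxylase) feeds the synthesis of the polyamines spermidine and spermine, and POLR1D is a subunit shared by RNA polymerases I and III. HMGB1 bends DNA in the nucleus and, once released from cells, acts as a danger signal on receptors such as RAGE and TLR4. CATSPERE is an accessory subunit of CatSper, the calcium channel of the sperm tail. A short read from a stretch that is identical in a parent and its copy fits both rows, and how the authors' counting treated such reads is not given in the sources used here. Each row of a pair is therefore uncertain by itself, and the sum of a pair is given beside its rows. The sum does not depend on which row of the pair received such a read. It would still miss reads that were dropped for fitting several places or counted on a gene outside the pair.

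In the GENCODE annotation of mm10, Hmga1b, Amd2, Gm12751 and Gm15387 each had a single exon. Hmga1b is annotated as protein-coding (chromosome 11, 120762794 to 120764419), and so is Amd2 (chromosome 10, 35708675 to 35711892), which lies 4.58 Mb from Amd1. Gm12751 (chromosome 4, 34354043 to 34354423) and Gm15387 (chromosome 15, 74093686 to 74094333) are processed pseudogenes. Catspere1 (chromosome 1, 177808550 to 177962233) had 19 exons and lies 21.2 kb from Catspere2. It is an unprocessed pseudogene in GENCODE and protein-coding in RefSeq. Of the parents, Hmga1 (chromosome 17, 27556497 to 27563674) lies 0.835 Mb from Fkbp5.

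The closeness of copy and parent was read from the GENCODE transcripts. Gm12751 was identical over all of its 381 bases to the coding sequence of the aligned Polr1d transcript, out of 6 annotated for that gene. Which form of the protein that transcript codes for was not examined. Hmga1b matched Hmga1 at 99.81% over 1602 aligned columns, with 3 substitutions, all in the 3′ untranslated region, and an identical coding sequence. Gm15387 matched the 648 bases of the Hmgb1 coding sequence at 99.85% with 1 substitution. Amd2 matched Amd1 at 99.56% with 10 mismatches, of which 1 fell in the coding sequence. Catspere1 matched Catspere2 at only 89.69%, with 204 mismatches and 109 gap columns, which goes against the description of this pair as near-identical.

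The first 120 coding bases in the aligned transcripts of Hmga1 and of Polr1d show what a read cannot tell apart. Those of Hmga1 lie at chr17:27559569-27559688 (mm10, plus strand, 1 exon). Those of Polr1d lie at chr5:147077668-147110666 (plus strand, spliced from 3 exons). The same letters stand in Hmga1b at chr11:120762889-120763008 and in Gm12751 at chr4:34354043-34354162.
Hmga1 and Hmga1b: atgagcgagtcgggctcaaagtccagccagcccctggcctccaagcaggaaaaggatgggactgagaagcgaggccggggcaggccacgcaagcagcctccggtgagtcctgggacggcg
Polr1d and Gm12751: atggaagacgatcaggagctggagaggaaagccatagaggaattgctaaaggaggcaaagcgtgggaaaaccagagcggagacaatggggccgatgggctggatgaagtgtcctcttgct

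In the Hmgb1 pair the single coding substitution, A21G (parent base first, position counted from the first base of the parent's start codon), lies near the start of the coding sequence, and in the Amd1 pair it is G796C. The next lines give both rows of each pair around that base, which is in capitals. The stretches are chr5:149050678-149050737 for Hmgb1, chr15:74094274-74094333 for Gm15387, chr10:40290156-40290216 for Amd1 and chr10:35710734-35710794 for Amd2, all on the minus strand. Gm5527 (chr1:52584518-52584577, plus strand), another processed copy of Hmgb1 described further on, carries the same G at position 21.
Hmgb1: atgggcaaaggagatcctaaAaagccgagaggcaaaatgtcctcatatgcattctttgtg
Gm15387: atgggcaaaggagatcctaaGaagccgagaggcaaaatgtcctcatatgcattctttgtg
Gm5527: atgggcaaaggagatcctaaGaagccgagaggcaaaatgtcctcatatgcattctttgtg
Amd1: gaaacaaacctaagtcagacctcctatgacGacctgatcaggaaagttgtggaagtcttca
Amd2: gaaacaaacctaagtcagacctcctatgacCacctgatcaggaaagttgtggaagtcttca

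The Catspere pair reads differently. In coding bases 599 to 698 of Catspere2 (chr1:178096681-178098467, spliced from 2 exons) and the aligned bases of Catspere1 (chr1:177857521-177859921), both on the plus strand, 7 of 100 letters differed. Those letters are in capitals.
Catspere2: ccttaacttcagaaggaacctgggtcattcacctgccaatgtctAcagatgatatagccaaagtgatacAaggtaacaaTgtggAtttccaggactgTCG
Catspere1: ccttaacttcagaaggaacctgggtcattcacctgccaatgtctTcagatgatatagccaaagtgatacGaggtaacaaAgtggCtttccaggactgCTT

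Windows of 100 bases were compared as a stand-in for reads, whose length is not given in the sources used here. All (100%) of the 282 windows of Gm12751 were also found in Polr1d. For Gm15387, 96.2% were also in Hmgb1, and all 549 were found in a transcript of some other gene, so no window was particular to Gm15387. The share also found in the parent was 78.8% for Hmga1b, 72.9% for Amd2 and 11.5% for Catspere1. For the parents, the windows of the aligned transcript alone were counted. Of these, 76.0% for Hmga1 and 73.2% for Amd1 were also in the copy, but only 27.2% for Polr1d, 19.3% for Hmgb1 and 9.7% for Catspere2. Of the copies, Hmga1b (324 windows), Amd2 (846) and Catspere1 (2522) had windows found in no other gene's transcript on the same strand.

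The sequence before the start site differed between the retrocopies and their parents. RefSeq (GRCm38.p6) promoter entries matched 8 of the 10 rows, all but Gm12751 and Gm15387. The 250 bases upstream of the Hmga1 start held 34 CpG dinucleotides at 72.8% GC, and those upstream of Hmga1b held 4 at 49.6% GC. For Amd1 the values were 19 CpG and 64.4% GC, and for Amd2 they were 2 CpG and 37.6% GC, beside medians of 6 CpG and 52.4% GC over 32851 promoter entries. The RefSeq entry, which runs past the start, gave no alignment between Hmga1b and Hmga1, 1 identical stretch of 48 columns between Amd2 and Amd1, and an alignment of Catspere1 with Catspere2 at 92.31% over 299 columns. The motif TATAAA was found on neither strand of these upstream windows in any of the 8 genes, and in 12.4% of all entries. Only this exact motif was searched, and similar sequences, such as tatataag in the Amd1 stretch below, were not.

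Stretches of 100 bases from within those upstream windows show that difference for the 2 retrocopies with promoter entries. Each lies just upstream of the GENCODE start or the RefSeq start, whichever comes first along the gene; for Hmga1 that is the GENCODE start, so its stretch ends before the start used for the CpG and GC values. They lie at chr17:27556397-27556496 (Hmga1, plus strand), chr11:120762694-120762793 (Hmga1b, plus), chr10:40302189-40302288 (Amd1, minus) and chr10:35711893-35711992 (Amd2, minus). No base is in capitals here.
Hmga1 upstream: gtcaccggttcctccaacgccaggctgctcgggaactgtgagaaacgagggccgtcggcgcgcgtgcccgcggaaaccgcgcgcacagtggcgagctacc
Hmga1b upstream: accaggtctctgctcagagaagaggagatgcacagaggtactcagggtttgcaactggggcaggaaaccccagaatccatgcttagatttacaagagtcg
Amd1 upstream: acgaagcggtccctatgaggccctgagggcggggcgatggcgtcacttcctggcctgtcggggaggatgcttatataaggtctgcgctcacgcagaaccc
Amd2 upstream: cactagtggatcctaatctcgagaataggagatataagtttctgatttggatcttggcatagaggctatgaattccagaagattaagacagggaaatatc

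Some features of the libraries bear on these values. Replicates 1 and 2 of every group stood apart from replicates 3 to 5, and wild-type LPS replicates 1 and 4 and knockout LPS replicate 1 carried the most thalamus marker RNA. The 10 hippocampus markers were present in every group, with summed levels of 1065 to 1524 CPM (counts-per-million, scaled with edgeR's TMM factors), beside 203 to 366 CPM for 10 thalamus markers, 28.1 to 143 CPM for 10 choroid plexus markers and 70.3 to 189.9 CPM for 10 meningeal markers. No marker of these lists was at 0 throughout. The part of these tissues in the results was not tested. The targeted gene, Fkbp5, had 64.6 ± 5.76 CPM (SD, n = 10) in wild-type and 30.1 ± 4.07 in knockout, without overlap. Its log2 fold change was -1.10 ± 0.08 (SE; edgeR quasi-likelihood, adjusted p = 3.63e-08), so counts on this gene remained in the knockout libraries. All parents but Amd1 share ground with other annotated genes. Hmga1 overlaps Gm49774 and AI413582, Polr1d overlaps Rps10-ps4, and Catspere2 overlaps Gm37313, Gm25312 and Gm8010. Hmgb1 overlaps 7 genes, Uspl1 among them. With the strand setting unknown, reads from shared ground may be counted on either gene.

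Hmga1b was absent or nearly so in wild-type and stood at the level of its parent in every knockout library. Its counts were 0, 3, 0, 1 and 2 in wild-type saline and 2, 1, 1, 0 and 0 in wild-type LPS. In knockout they were 501, 441, 346, 294 and 344 after saline and 821, 579, 441, 324 and 362 after LPS. No knockout library overlapped any wild-type library. Over both treatments the scaled counts were 401 times those of wild-type, with a 95% counting interval of 218 to 837 that covers counting error only, on 10 counts in wild-type and 4453 in knockout.

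**Figure D1:**
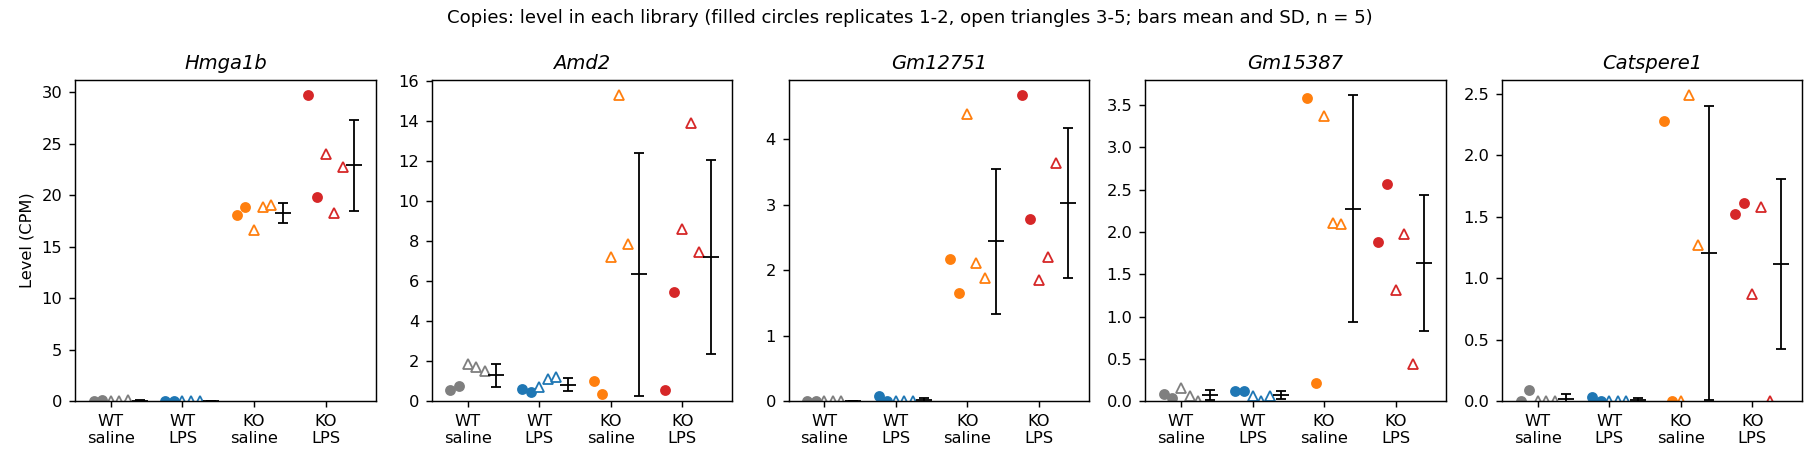
Level of each copy in CPM (vertical axis, from 0) in every library of the 4 groups (filled circles, replicates 1 and 2; open triangles, replicates 3 to 5), with black bars for the mean and SD of 5 libraries. Hmga1b, Gm12751 and Gm15387 lie above wild-type in all 10 knockout libraries, while Amd2 and Catspere1 do so in 7 of 10.

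Hmga1 moved the other way. It stood at 41.8, 35.9, 42, 39.1 and 40.6 CPM in wild-type saline and at 51.5, 38.7, 44.7, 49 and 44.6 CPM in wild-type LPS. In knockout it stood at 15.2, 14, 19.4, 20.9 and 16.6 CPM after saline and at 19.6, 17, 22.2, 19.2 and 16.8 CPM after LPS. Every knockout library was below every wild-type library. The same held for 6 of the 16419 tested genes (0.0365%), a share from which nothing is read here because the pair was chosen on this contrast. Over both treatments the mean went from 42.8 ± 4.78 CPM (SD, n = 10) to 18.1 ± 2.59 CPM, 42.3% of wild-type.

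The sum of Hmga1 and Hmga1b differed far less between genotypes than either row. Hmga1 was lower by 24.7 CPM in knockout and Hmga1b was higher by 20.5 CPM, which left the sum at 42.9 ± 4.76 CPM (SD, n = 10) in wild-type and 38.7 ± 5.34 CPM in knockout. The genotypes overlapped, with 36 to 51.6 CPM in wild-type and 32.8 to 49.3 CPM in knockout, and the log2 ratio of the means was -0.15. It was -0.14 in replicates 1 and 2 alone and -0.15 in replicates 3 to 5 alone. Hmga1b took 46.2% to 60.3% of the counts of the pair in the 10 knockout libraries. Per kilobase of exonic length, Hmga1b stood at 12.7 ± 2.4 and Hmga1 at 8.52 ± 1.22 CPM per kb in knockout, against 20.1 ± 2.25 for Hmga1 in wild-type. Exonic length joins the exons of all annotated transcripts, 2125 bases for Hmga1 and 1626 for Hmga1b. The aligned Hmga1 transcript has 1681 bases, so the order of these rows per kb depends in part on the divisor.

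Gm12751, the copy of the polymerase subunit gene Polr1d, was found in every knockout library and in 1 of 10 wild-type libraries. It had no count in wild-type saline, which allows up to 0.0314 CPM over that group (3 counts, counting error only). In wild-type LPS it had 2 counts, both in replicate 1. In knockout the counts were 60, 39, 91, 33 and 34 after saline and 129, 81, 34, 39 and 58 after LPS. After saline the level was thus at least 77.5-fold higher in knockout, with the wild-type group set to its floor of 3 counts in all, and over both treatments the ratio was 269 with a counting interval of 74.2 to 2228. That ratio rests on wild-type LPS replicate 1: without it wild-type had no count, and the level was at least 156-fold higher in knockout. The ratio was 134 (36.8 to 1111) in replicates 1 and 2 alone and at least 90.0 in replicates 3 to 5 alone.

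Polr1d had nearly equal means in both genotypes. They were 42.8 ± 8.61 CPM (SD, n = 10) in wild-type (31.5 to 54) and 42.9 ± 3.99 CPM in knockout (35.1 to 47.4), and the genotypes overlapped. Gm12751 added 2.73 ± 1.1 CPM in knockout, 3.71% to 11.1% of the counts of the pair. The pair sum was 42.8 ± 8.6 CPM in wild-type and 45.7 ± 4.14 CPM in knockout, a log2 ratio of 0.09. That ratio depended on the library set: it was 0.33 in replicates 1 and 2 alone (33.9 ± 3.07 CPM, n = 4, against 42.7 ± 4.04) and -0.03 in replicates 3 to 5 alone (48.7 ± 4.79 CPM, n = 6, against 47.7 ± 2.96). Per kilobase, Gm12751 reached 7.18 ± 2.89 and Polr1d 14.1 ± 1.31 CPM per kb in knockout, with the annotated Gm12751 row limited to the coding stretch of 381 bases. For Polr1d the divisor was 3043 bases, the joined exons of all its transcripts, while its aligned transcript has 1137. The comparison per kb depends in part on that divisor.

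Gm15387, the copy of Hmgb1, was near 0 in wild-type and uneven in knockout. Its counts were 2, 1, 3, 1 and 0 in wild-type saline and 3, 3, 1, 0 and 1 in wild-type LPS. In knockout they were 99, 5, 70, 33 and 38 after saline and 52, 75, 24, 35 and 7 after LPS. All 10 knockout libraries were above all wild-type libraries, but knockout saline replicate 2 (0.213 CPM) and knockout LPS replicate 5 (0.439 CPM) were far below the other 8, which ran from 1.31 to 3.58 CPM. The ratio over both treatments was 26.3 with a counting interval of 15.8 to 47.4.

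Hmgb1 was among the more abundant genes of the 5 pairs, and Gm15387 took only 0.106% to 2.18% of the pair's counts in knockout. Its mean was 176 ± 17.6 CPM (SD, n = 10) in wild-type (144 to 192) and 155 ± 25.8 CPM in knockout (95.3 to 201). The lowest of all was knockout LPS replicate 1 at 95.3 CPM, 1 of the 3 libraries with the most thalamus RNA, and the highest was knockout saline replicate 2 at 201 CPM. The pair sum was 176 ± 17.6 CPM in wild-type and 157 ± 25.6 CPM in knockout, a log2 ratio of -0.17, and -0.11 without knockout LPS replicate 1. In replicates 3 to 5 alone the sums did not overlap, with 181 to 192 CPM in 6 wild-type libraries and 144 to 166 CPM in 6 knockout libraries. In replicates 1 and 2 alone the sums overlapped, with 144 to 174 CPM and 97.2 to 201 CPM. The share of all tested genes without overlap in replicates 3 to 5 was not counted, so nothing is read from this. In those libraries alone 1257 genes were called between genotypes, against 72 with all libraries.

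**Figure D2:**
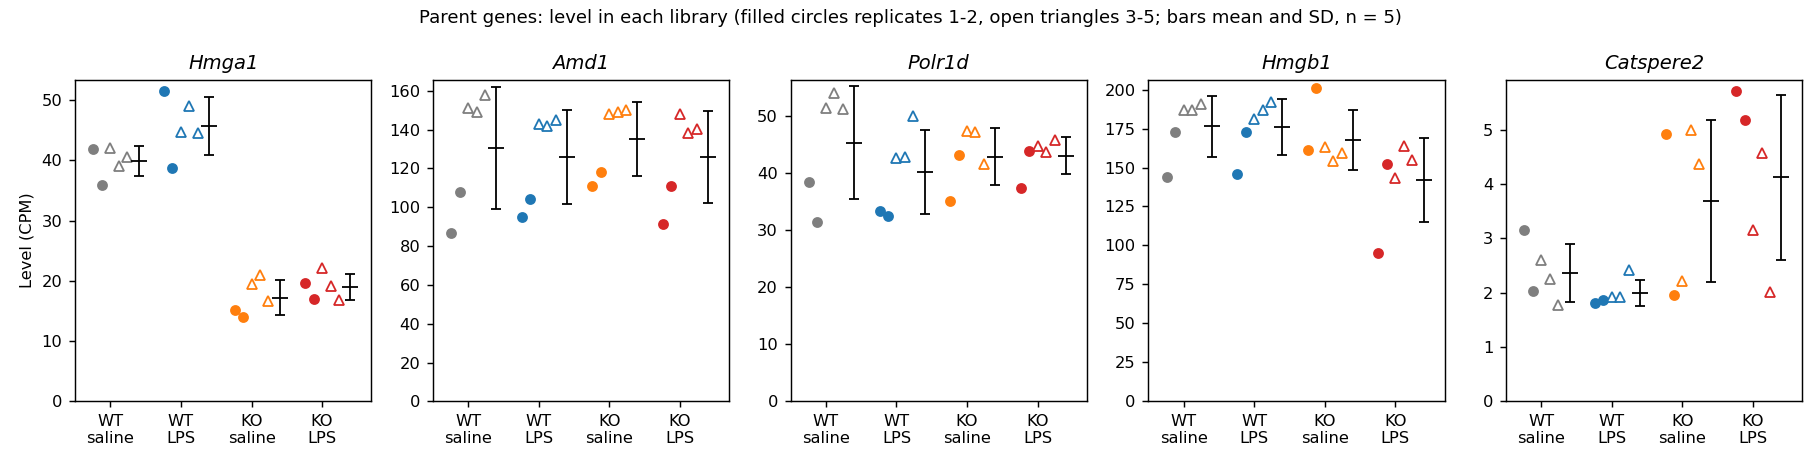
Level of each parent gene in CPM (vertical axis, from 0) in every library, with marks and bars as for the copies. Only Hmga1 is lower in every knockout library than in every wild-type library; Catspere2 is higher in 7 of 10 knockout libraries, and Amd1 and Polr1d differ more between replicates 1 to 2 and 3 to 5 than between genotypes.

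Amd2 was the only copy with counts in every wild-type library, and it split the knockout libraries. In wild-type it had 13, 17, 35, 29 and 25 counts after saline and 16, 12, 11, 19 and 19 after LPS. In knockout it had 28, 9, 150, 239 and 142 counts after saline and 16, 159, 158, 247 and 119 after LPS. Knockout saline replicate 1 (1.01 CPM) and knockout LPS replicate 1 (0.58 CPM) lay inside the wild-type range of 0.487 to 1.87 CPM, and knockout saline replicate 2 (0.383 CPM) lay below it. The other 7 knockout libraries ran from 5.45 to 15.3 CPM and were above all wild-type libraries. Over both treatments the ratio of scaled counts was 5.82 (counting interval 5 to 6.8), and 3.17 (2.36 to 4.31) in replicates 1 and 2 alone.

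Amd1, which makes the decarboxylated donor for spermidine and spermine synthesis, differed between genotypes by less than its spread. Its mean was 128 ± 26.5 CPM (SD, n = 10) in wild-type and 130.5 ± 20.9 CPM in knockout, and the ranges overlapped, from 86.9 CPM up in wild-type and from 91.5 CPM up in knockout. The pair sum was 129 ± 26.9 and 137 ± 25.1 CPM, a log2 ratio of 0.09. Most of that spread lay between the library sets: the wild-type sums were 99 ± 9.44 CPM (n = 4) in replicates 1 and 2 and 149 ± 6.34 CPM (n = 6) in replicates 3 to 5, and the knockout sums were 109.7 ± 12 and 156 ± 5.7 CPM. Amd2 took 0.324% to 9.28% of the pair's counts in knockout and 0.466% to 1.22% in wild-type.

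Both Catspere rows were higher in most knockout libraries. Catspere1 had 3 counts in all of wild-type, 2 in saline replicate 2 and 1 in LPS replicate 1. In knockout it had 63, 0, 0, 39 and 23 counts after saline and 42, 47, 16, 28 and 0 after LPS, so 3 knockout libraries had none, replicates 2 and 3 after saline and replicate 5 after LPS. The ratio over both treatments was 77.4 with a counting interval of 26.2 to 378. It was 206 (36.7 to 8176) without wild-type saline replicate 2, 43.9 (14.8 to 215) in replicates 1 and 2 alone, and at least 33 in replicates 3 to 5 alone, where wild-type had no count. Catspere2 stood at 3.15, 2.03, 2.61, 2.25 and 1.77 CPM in wild-type saline and 1.81, 1.87, 1.93, 1.92 and 2.41 CPM in wild-type LPS. In knockout it stood at 4.92, 1.96, 2.21, 4.99 and 4.37 CPM after saline and 5.72, 5.17, 3.16, 4.57 and 2.01 CPM after LPS.

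The 3 knockout libraries without a Catspere1 count were also the 3 with Catspere2 inside the wild-type range. This pair was the only one of the 5 whose sum differed by more than 1.5 times between genotypes: 2.19 ± 0.434 CPM (SD, n = 10) in wild-type (1.77 to 3.15) and 5.07 ± 2.31 CPM in knockout (1.96 to 7.48), a log2 ratio of 1.21. It was 1.37 in replicates 1 and 2 alone and 1.09 in replicates 3 to 5 alone. In the knockout libraries with Catspere1 counts it took 21.0% to 33.3% of the pair's counts. In wild-type it took 4.35% in saline replicate 2 and 2.13% in LPS replicate 1. The knockout saline libraries without Catspere1 had 0 of 46 counts each, and the knockout LPS library without it had 0 of 32. The exact 95% binomial upper limits there were 7.71% and 10.9%.

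**Figure D3:**
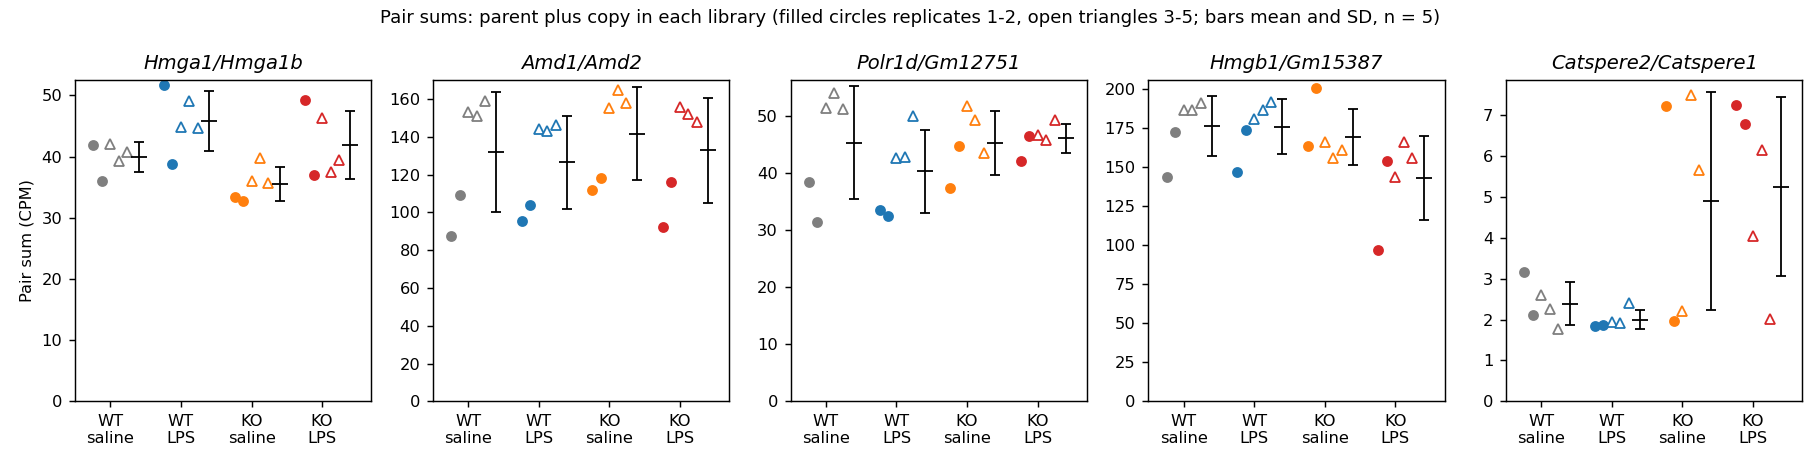
Sum of parent and copy in CPM (vertical axis, from 0) in every library, with marks and bars as for the copies. The genotypes overlap for every pair, and the Catspere pair is higher in 7 of 10 knockout libraries.

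Set side by side, 3 of the 5 copies (Hmga1b, Gm12751 and Gm15387) were higher in all 10 knockout libraries than in all 10 wild-type libraries, as were 19 of the 16419 tested genes (0.116%), a share from which nothing is read here. Amd2 and Catspere1 were above wild-type in 7 of 10, but not in the same 7. Amd2 was inside or below the wild-type range in 3 knockout libraries, replicates 1 and 2 after saline and replicate 1 after LPS, and Catspere1 was at 0 in another set of 3, which shared knockout saline replicate 2. Gm15387 was lowest in knockout saline replicate 2 and knockout LPS replicate 5. Hmga1b, by contrast, stayed between 16.6 and 29.7 CPM in all 10 knockout libraries.

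After LPS, no parent and no pair sum passed the test in either genotype, and no copy passed it in knockout. Hmga1b, Gm12751, Gm15387 and Catspere1 entered the fit through the knockout libraries and had 0 to 3 counts per library in wild-type, so their wild-type and interaction tests could not show a response and are not read here. In wild-type mice 0 of 16419 genes were called by edgeR's quasi-likelihood test at a Benjamini-Hochberg adjusted p under 0.05 (0%), with 340 at an unadjusted p under 0.05, and DESeq2 called 2 genes. With the replicate number as a block edgeR called 3. In knockout mice 1 gene was called (0.00609%), the immune receptor gene Lag3, which is no member (1.18 ± 0.17, edgeR, adjusted p = 0.0216, named after its value was seen). That call was lost on leaving out any 1 of 8 knockout libraries, namely replicates 1, 3, 4 and 5 after saline and replicates 2 to 5 after LPS. In the same comparison 287 genes had an unadjusted p under 0.05, DESeq2 called 7, and the replicate block gave 5. In the fit with each pair summed, 0 and 1 of 16414 rows were called, and none was a pair. None of the 5 parents, 5 sums or, in knockout, 5 copies was among the calls of DESeq2 or of the blocked fit.

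The member estimates closest to the threshold came from the Hmga1 pair. Its sum was 40.0 ± 2.48 CPM (SD, n = 5) in wild-type saline and 45.7 ± 4.9 in wild-type LPS, which is 0.20 ± 0.10 on the log2 scale (SE; edgeR, adjusted p = 1). In knockout the sum went from 35.5 ± 2.73 CPM with saline to 41.9 ± 5.58 with LPS, which is 0.24 ± 0.10 on the log2 scale (edgeR, unadjusted p = 0.0236, adjusted p = 1). Hmgb1 was 167 ± 19 CPM in knockout saline and 142 ± 27.1 in knockout LPS, or -0.24 ± 0.13 on the log2 scale (edgeR, adjusted p = 1), and 176 CPM in both wild-type groups. The knockout LPS mean of Hmgb1 includes the 95.3 CPM of replicate 1. Amd1, Polr1d and Catspere2 had log2 fold changes of -0.11 ± 0.18, 0.01 ± 0.15 and 0.17 ± 0.28 in knockout (edgeR, adjusted p = 1 each).

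**Figure D4:**
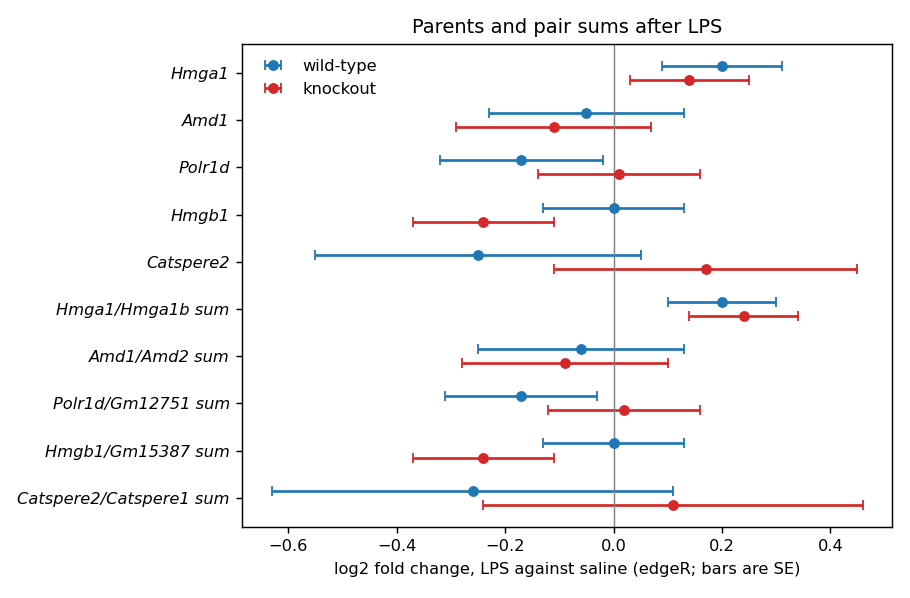
Log2 fold change of LPS against saline (horizontal axis) for the 5 parents and the 5 pair sums (rows), in wild-type (blue) and knockout (red), as fitted by edgeR with the SE as bars. The estimates lie between -0.26 and 0.24, and none passed the test.

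The interaction of genotype and LPS called 0 of 16419 genes (0%) in edgeR and in every alternative fit run, with 182 genes at an unadjusted p under 0.05. The interaction estimates of the pair sums were 0.04 ± 0.14 for Hmga1, -0.03 ± 0.27 for Amd1, 0.20 ± 0.20 for Polr1d, -0.24 ± 0.18 for Hmgb1 and 0.37 ± 0.51 for Catspere2 (edgeR log2 scale with SE, adjusted p = 1 each). These intervals are wide, and a missed threshold does not show that the effects of LPS were equal.

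The share of a pair's counts on the copy, which does not depend on library scaling, was compared between knockout LPS and knockout saline with an exact 2-sided permutation test over the 5 pairs. Hmga1b took 51.7% ± 4.75 (SD, n = 5) after saline and 54.4% ± 4.54 after LPS (exact permutation p = 0.357, adjusted 0.853). Gm12751 took 5.32% ± 1.92 and 6.65% ± 2.8 (exact permutation p = 0.429, adjusted 0.853), and Amd2 took 4.03% ± 3.62 and 5.01% ± 3.04 (p = 0.548, adjusted 0.853, exact permutation). Gm15387 took 1.39% ± 0.82 and 1.2% ± 0.65 (exact permutation p = 0.683, adjusted 0.853), and Catspere1 17.5% ± 16.5 and 18.4% ± 10.5 (exact permutation p = 0.952, adjusted 0.952). The smallest p this design allows is 0.00794. None of the 5 shares differed beyond the spread between libraries.

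**Figure D5:**
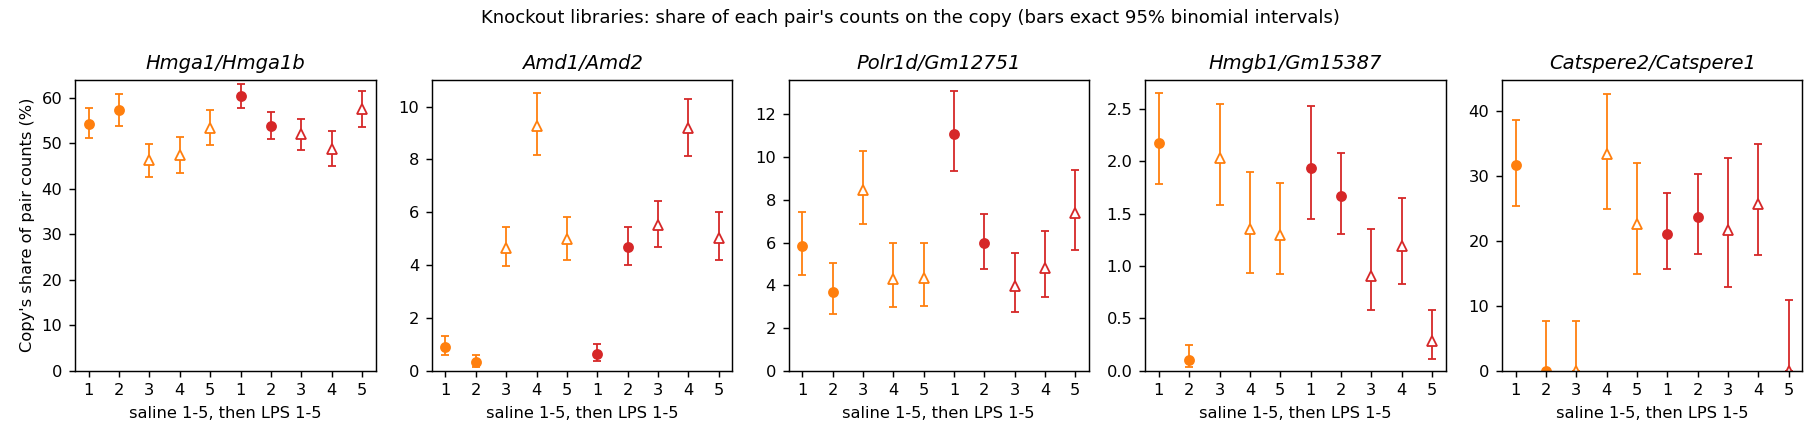
Share of each pair's counts that fell on the copy (vertical axis, percent, from 0) in the 10 knockout libraries (saline replicates 1 to 5, then LPS replicates 1 to 5), with exact 95% binomial intervals as bars. Hmga1b lies between 46.2% and 60.3%, Amd2 between 0.324% and 9.28%, and Catspere1 is at 0 in 3 libraries.

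Among Amd2, Gm12751 and Hmga1b, the share differed between knockout libraries most, in relative terms, for Amd2. Outside these 3 copies, Catspere1 ran from 0% to 33.3% and Gm15387 from 0.106% to 2.18%. The Amd2 share was 0.324% (exact 95% binomial interval 0.148% to 0.614%) in knockout saline replicate 2 and 9.28% (8.18% to 10.5%) in knockout saline replicate 4. For Gm12751 it ran from 3.71% (2.65% to 5.04%) in knockout saline replicate 2 to 11.1% (9.36% to 13.1%) in knockout LPS replicate 1. Hmga1b ran from 46.2% (42.6% to 49.8%) to 60.3% (57.6% to 62.9%). These intervals cover counting error only.

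Other rows in the table that align to a parent at 95% identity or more over at least 30% of the shorter transcript were examined next, chosen by sequence alone. Hmga1 and Polr1d had none besides the copy. Catspere2 had none, its copy included, as Catspere1 matched it at 89.69%. Amd1 had 4 others, and Hmgb1 had 38. Of the 4 for Amd1, 1 was tested, the processed pseudogene Amd-ps4, with 1.46 CPM in wild-type and 1.54 in knockout, or 0.05 ± 0.31 on the log2 scale (edgeR, adjusted p = 1). Of the 38 for Hmgb1, 7 had no count anywhere and 5 were tested.

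Between genotypes, 72 of 16419 genes (0.439%) were called, 48 higher and 24 lower (122 with DESeq2, 176 with the replicate block). Gm5527 (chromosome 1, 52584518 to 52585159), which matched Hmgb1 at 98.44% over 641 aligned columns, had 1, 3, 3, 1 and 6 counts in wild-type saline and 1, 2, 1, 3 and 1 in wild-type LPS. In knockout it had 59, 7, 63, 41 and 61 counts after saline and 51, 66, 53, 60 and 62 after LPS. The means were 0.12 CPM in wild-type and 2.57 in knockout. In CPM the genotypes overlapped, as knockout saline replicate 2 (0.298 CPM) lay below wild-type saline replicate 5 (0.367 CPM). Gm5527 passed the filter on low counts only through the knockout libraries, so no test of this difference is given. Like Gm15387 it was lowest in knockout saline replicate 2, but unlike Gm15387 it was not low in knockout LPS replicate 5. The other 4 tested rows, Gm5518, Hmgb1-ps2, Gm13577 and Gm46432, had log2 fold changes of 0.48, 0.30, -0.27 and -0.27 (edgeR, adjusted p = 1 each).

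The genes whose levels followed the members most closely were ranked by Pearson's r of log2 CPM over all 20 libraries, as a description. These correlations pool both genotypes and both library sets, which the points share, and carry no test. The copies were chosen for appearing in knockout. A high r with other rows near 0 in wild-type follows in large part from that choice, and nothing is read from it here. Hmga1 followed Fkbp5 most closely (r = 0.93), then Gpnmb and Decr2 (0.90 each). Hmga1b followed the antisense gene AC165951.1 (0.99; 0.0643 CPM in wild-type and 29.9 in knockout), Gm12751 (0.98) and the processed pseudogene Gm13443 (0.97), and its lowest value was with Hmga1 (-0.96). Gm12751 followed Hmga1b (0.98), AC165951.1 (0.98) and Gm13443 (0.96).

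Of the copies with uneven knockout levels, Gm15387 shared neighbours with Hmga1b in this ranking, while Catspere1 and Amd2 had others. Gm15387 was most like Gm12751 (r = 0.90), AC165951.1 (0.90) and Gm5527 (0.88). Catspere1 was most like the processed pseudogene Gm13736 (0.98; 0.0297 CPM in wild-type and 8.74 in knockout), then Catspere2 (0.92) and Gm6206 (0.90). Amd2 was most like Adat2 (0.90), which lies on the same chromosome 22.2 Mb away, then Rbm43 (0.89) and Malsu1 (0.84). Amd1 was instead most like Tmem33 and Hspa13 (0.99 each) and Cggbp1 (0.98), and Polr1d like Ndufs5, Ndufb4 and Mpc2 (0.96 each). Hmgb1 was most like Gm14326 (0.93), Ppp4r2 (0.89) and Acadl (0.88), and Catspere2 like Catspere1 (0.92), Gm13736 (0.90) and Gm6206 (0.84). The lowest correlations were with AC165951.1 for Hmga1 (-0.96), Fkbp5 for Gm12751 (-0.94), Atad2b for Amd1 (-0.99), Noc2l for Amd2 (-0.93), Qser1 for Polr1d (-0.94), Ptpn5 for Hmgb1 (-0.87), CAAA01118383.1 for Gm15387 (-0.92), Mcm6 for Catspere2 (-0.79) and Srp9 for Catspere1 (-0.88).

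Genes that work with the parents' products did not pass the test in any of the 4 comparisons. Of 10 tested genes of the high mobility group family, 0 were called between genotypes (median log2 fold change -0.01, as for all tested genes). The smallest p was that of Hmgn2, a nucleosome-binding member, at 76.6 and 71.3 CPM in wild-type and 66.1 and 65.7 in knockout (saline and LPS; -0.16 ± 0.08, edgeR, adjusted p = 0.993). Of 13 tested receptors, adaptors and partners of HMGB1, 0 were called. Tlr2, a receptor of bacterial lipoproteins and of HMGB1, had 1.19 CPM with saline and 2.14 with LPS in wild-type, and 0.69 and 2.24 CPM in knockout. The latter is a log2 difference of 1.70 ± 0.32 that did not pass (edgeR, adjusted p = 0.122). The median of that list after LPS was 0.20 in wild-type and 0.31 in knockout, beside -0.02 and 0.01 for all genes.

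Of 20 tested genes of polyamine synthesis, breakdown and transport, 0 were called in any comparison. Sms, which makes spermine from the product of AMD1, stood at 156 and 148 CPM in wild-type and 171 and 164 in knockout (0.14 ± 0.10, edgeR, adjusted p = 1). Atp13a2, a lysosomal polyamine exporter, had the smallest p after LPS in knockout (135 and 155 CPM, 0.19 ± 0.09, edgeR, adjusted p = 1). Of 23 other subunits of RNA polymerases I and III, 0 were called, and Polr1b, the second largest subunit of polymerase I, stood at 15 and 14.1 CPM in wild-type and 12.8 and 12.4 in knockout (-0.21 ± 0.08, edgeR, adjusted p = 0.835). Polr3gl, a polymerase III subunit, had 18.3 and 23.5 CPM in knockout without and with LPS (0.37 ± 0.12, edgeR, adjusted p = 1). Of 14 other CatSper channel genes only 5 were abundant enough to test, and 0 were called. All 5 had a log2 fold change below 0 between genotypes (median -0.59), among them Catsperz at 1.27 and 1.42 CPM in wild-type and 0.752 and 0.939 in knockout (-0.67 ± 0.22, edgeR, adjusted p = 0.514), whereas the Catspere pair was higher in 7 of 10 knockout libraries.

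Among the tissue marker lists, 1 of 10 hippocampus markers was called between genotypes. C1ql2, a synaptic organiser of dentate granule cells, stood at 197 and 176 CPM in wild-type and 99 and 88.4 in knockout (-1.0 ± 0.17 on the log2 scale, edgeR, adjusted p = 0.00645). None of the thalamus, choroid plexus or meningeal markers was called in any comparison. In bulk tissue, fewer cells of a type and less RNA per cell cannot be told apart.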

How the data were processed

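The authors deposited raw counts for each gene in 20 libraries, whole numbers made with featureCounts 1.6.0 after trimming with Trimmomatic 0.38, on build mm10, per the submitters' processing notes; the aligner, strand setting and handling of reads that fit several places are not given in the sources used here. No sample column was left unused. Gene identifiers matched GENCODE M21 for 55536 of 55536 rows.

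The members and the gene lists were chosen with earlier results of these data known. All 20 libraries entered 1 edgeR 4.0.16 fit (R 4.3.3; TMM, filterByExpr, quasi-likelihood F test, Benjamini-Hochberg over 16419 genes, threshold 0.05), tested on simulated counts, and a second fit with each pair summed. Levels are CPM on TMM library sizes. Copy shares were tested by exact permutation over 252 regroupings, with at least 10 pair counts per library. Transcripts were aligned with blast 2.17.0. Folds against a group at 0 use a floor of 3 counts over the group. Intervals are exact (95%) and cover counting error only. No 2 libraries of a group agreed within sampling noise (smallest chi-square per degree of freedom 3.86).

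Named genes were the 10 members, Fkbp5, per list the members past the threshold or else with the smallest p, and the 3 genes most and the 1 least like each member, with Gm5527 and the other tested relatives of the parents added after their values were seen. With each group's mean taken off, libraries that share a replicate number correlated over 30 pairs at 0.264 to 0.854 (median 0.462). Pairs of another number within the same set correlated at 0.191 to 0.672 (median 0.45), a similar range, so pairing beyond the library set is not shown. The main fits and the main share test did not use the numbers as pairs. The numbers entered only as the replicate block among the alternatives. Alternatives were DESeq2 1.42.0, its size factors, other filters, the replicate block, the library sets, the libraries with the most thalamus RNA left out, and each library left out.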

Additional observations from a re-analysis of the deposited data

Results flagged for a closer look

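Among 70 sets of 5 libraries (each member's level and each pair sum in the 4 groups, and each copy share in the 2 knockout groups), 10 held a library far from the other 4 by Dixon's test at 95%; chance marks about 1 in 20 such sets, and sets with mostly zero counts are marked by any count. The same library can be marked by a row and by its sum. Gm12751 stood at 4.38 CPM in knockout saline replicate 3 (other libraries 1.66 to 2.17). Polr1d stood at 37.4 CPM in knockout LPS replicate 1 (others 43.6 to 45.7). Hmgb1 stood at 201 CPM in knockout saline replicate 2 (others 154 to 163), and so did its pair sum at 201 CPM (others 156 to 166). Catspere2 stood at 2.41 CPM in wild-type LPS replicate 5 (others 1.81 to 1.93), as did its pair sum at 2.41 CPM (others 1.85 to 1.93). The Catspere1 share was 0 in knockout LPS replicate 5 (others 21.0% to 25.7%).

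The other marks were 1 or 2 counts in a wild-type library. Gm12751 stood at 0.0789 CPM in wild-type LPS replicate 1, Catspere1 at 0.0922 CPM in wild-type saline replicate 2 and at 0.0394 CPM in wild-type LPS replicate 1, with all other libraries of these groups at 0.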

How the results depend on the processing

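The 45 LPS and interaction estimates of the members and pair sums (8 of them, the wild-type and interaction tests of the 4 copies near 0 in wild-type, could not pass) gave 1305 values under the alternatives; 0 passed the threshold (smallest adjusted p 0.686), 96 had the other sign, and 21 of the 45 estimates kept their sign throughout. The pair sums gave 0 calls for LPS under every alternative, the replicate block included. The copy shares also gave 0 calls. For the shares, the replicate block and each library set alone have too few regroupings to reach a p under 0.05. Those runs could not give a call, and nothing is read from them. The number of genes called after LPS in wild-type was 0, but 2 with DESeq2, 3 with the replicate block, 3 with a term for the library set and 1 once the 3 libraries richest in thalamus RNA were left out; in knockout it was 1, but 7 with DESeq2, 5 with the replicate block, 7 with the set term and 2 in replicates 3 to 5 alone. Between genotypes it was 72, but 122 with DESeq2, 176 with the replicate block, 152 with the set term, 10 in replicates 1 and 2 alone and 1257 in replicates 3 to 5 alone. The replicate block changed no other call. Leaving out each library gave 0 to 1, 0 to 2 and 54 to 81 calls; the single call after LPS in knockout, Lag3, was lost without any 1 of 8 knockout libraries, and leaving out knockout LPS replicate 1 gave the 1 call in wild-type. The interaction stayed at 0. The log2 genotype ratio of the Polr1d pair sum was 0.33 in replicates 1 and 2 alone against 0.09; the cause was not tested. Leaving out each library moved the log2 ratios of the pair sums to between -0.19 and -0.11 (Hmga1), 0.04 and 0.14 (Amd1), 0.05 and 0.14 (Polr1d), -0.22 and -0.11 (Hmgb1), and 1.13 and 1.31 (Catspere2). Depth limits the copies in wild-type, where most libraries hold 0 to 3 counts of Hmga1b, Gm12751, Gm15387 and Catspere1.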
